A study of Mus musculus with 16 samples.

Results

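The expression of 36 genes of astrocytes and radial glia was followed in neural stem cells (NSC) in which the lncRNA *RUS* was targeted by an shRNA. The genes were chosen by name, and each symbol was found once among the 55468 named lines of the day 5 table and once among the 55471 of the day 7 table. They fall into 6 roles, with 3 genes of glutamate uptake and metabolism, 11 of water, gap junction, ion and amino acid transport, 6 of enzymes and of lipid and calcium binding, 6 transcription factors, 9 secreted and matrix proteins and 1 receptor.

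All 16 libraries came from NSC of C57BL/6 mouse cortices at E15-16, pooled from embryos of mixed sex and grown as monolayers with FGF2 and serum until day 5, when differentiation was begun in Neurobasal medium with B27 and GlutMax. A lentivirus carried either a scrambled sequence (scr shRNA, the control) or an shRNA against *RUS* (RUS shRNA, the knockdown). Each shRNA was sampled on day 5 and on day 7 after seeding, with 4 libraries in each of the 4 groups. Every group therefore shares the lentiviral transduction and the serum of the first days. A single shRNA against *RUS* was used in these libraries, and the labels do not say whether the 4 libraries of a group came from separate cultures, so the spread between them may be technical.

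Radial glia are the stem cells of the embryonic cortex. They produce neurons first and astrocytes later, and both cell types share much of their gene expression, among it the glutamate transporter *Slc1a3* and the lipid-binding protein *Fabp7*. The nuclear factor I proteins (*Nfia*, *Nfib* and *Nfix*) and *Sox9* are transcription factors known for switching neural progenitors towards glia. Mature astrocytes take up glutamate and convert it to glutamine, buffer ions and water through channels and gap junctions, and secrete proteins that act on the matrix and on synapses.

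The deposited values are TPM, which correct for transcript length and have the same sum in each library, so that the number of reads is unknown. They were divided by a library factor (between 0.845 and 1.1) to give scaled TPM, the level printed for each library here. *Gm20754*, the mouse gene of *RUS*, lay near the lower end of the scale. On day 5 its TPM as deposited was 0.24, 0.11, 0.18 and 0.16 with scr shRNA and 0.05, 0, 0.12 and 0.32 in the libraries labelled RUS shRNA, so that 1 of these was above every control (exact permutation test, two-sided, p = 0.543). On day 7 it was 0.7, 0.72, 0.26 and 0.54 with scr shRNA and 0.54, 0.38, 0 and 0.04 with RUS shRNA (exact permutation test, p = 0.143, where the smallest p that 4 against 4 libraries allow is 0.0286). The library labelled RUS shRNA day 5 replicate 4, which had the 0.32 TPM, also stood apart across all genes. Its root mean square distance to the other libraries of its group was 0.499 on the log2 scale, the largest of the 16, and its distance to the controls of that day was 0.537, the smallest, so results of day 5 that rest on it are given without it as well.

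The 36 genes carried on average 2.1% of the deposited TPM of a library with scr shRNA on day 5, 2.5% with RUS shRNA on day 5, 1.94% with scr shRNA on day 7 and 2.33% with RUS shRNA on day 7. *Cst3*, which encodes the protease inhibitor cystatin C, had the highest level of the 36 in each group, 4919 ± 903 scaled TPM (SD, n = 4, as for all levels below) with scr shRNA on day 5. *Fabp7* (3617 ± 423), *Sparc* (1948 ± 54.0) and *Clu* (1449 ± 58.3) followed in that group, and these 4 genes made up 55.2% of the scaled TPM of the 36. Most of the list was expressed well above the median gene, with 21 genes over 100 scaled TPM in that group. The lowest levels were those of *Slc7a10* (1.76 ± 0.281), *S100b* (4.58 ± 0.611), *Slc6a11* (4.79 ± 0.613) and *Gjb6* (6.98 ± 0.307), of which *S100b* and *Slc6a11* did not differ beyond their spread. *S100b*, *Gjb6* and *Slc7a10* are expressed strongly in astrocytes of the adult brain, and here they stood at the low end while *Slc1a3*, *Mlc1* and *Ndrg2* were among the upper genes.

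**Figure D1:**
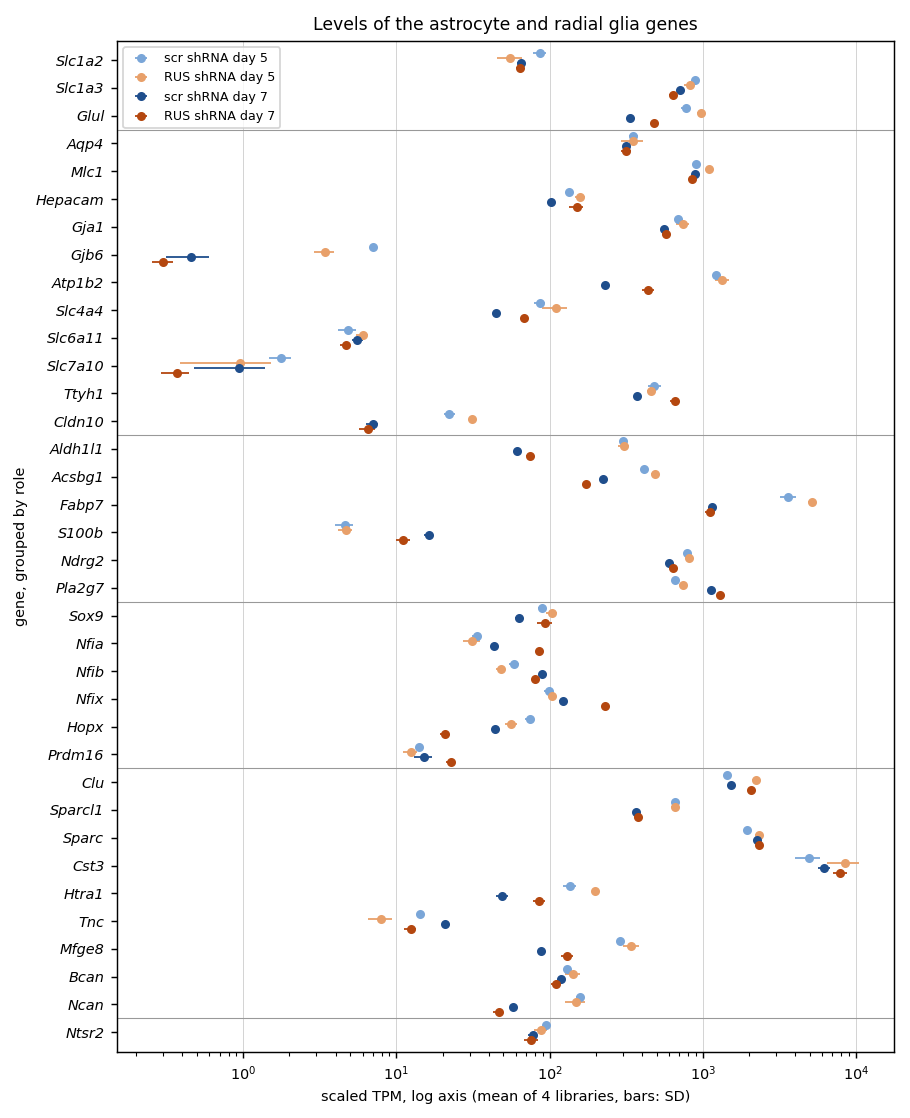
Mean scaled TPM (horizontal log axis) of each of the 36 genes (vertical axis, grouped by role) in the 4 groups, with bars for the SD of 4 libraries. *Cst3* lies at the upper end in all groups, and *Gjb6* and *Slc7a10* lie near or below 1 scaled TPM on day 7.

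The label of the list was checked against genes that are not on it. *Gfap*, an intermediate filament of radial glia and astrocytes, had 1848 ± 74.5 scaled TPM with scr shRNA on day 5 and 615 ± 13.7 on day 7, and *Aldoc* had 1327 ± 42.6 and 1013 ± 27.4. *Rbfox3*, a marker of mature neurons, had 1.94 ± 0.136 and 2.12 ± 0.337. The 20 neuronal genes together summed to between 784 and 889 scaled TPM with scr shRNA on day 5. In these libraries their median level on the log2 scale was 3.37 to 3.72. That of 36 astrocyte genes not on the list, *Gfap* and *Aldoc* among them, was 5.68 to 5.80. The genes named here thus lie further apart than the 2 lists do.

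The first question was how the knockdown moved these genes on each day. On day 5, 13 of the 36 genes rose with RUS shRNA and 5 fell at an adjusted p under 0.05 (limma, adjusted over all 22581 genes tested), and the other 18 did not pass. The genes that rose with the largest changes were *Cst3*, *Clu*, *Htra1*, *Fabp7* and *Cldn10*, and those that fell were *Gjb6*, *Tnc*, *Slc1a2*, *Hopx* and *Nfib*. Across the whole table, 14.8% of genes passed as higher and 17.9% as lower in this comparison. The median log2 fold change was 0.09 for the 36 genes and −0.06 for all genes. Each change given with an SE or an adjusted p here is a log2 fold change from limma, on the scale of log2(scaled TPM + 0.1). Without RUS shRNA day 5 replicate 4, 14 of the 36 rose and 6 fell, where 3929 of all genes were called higher and 4593 lower in place of 3349 and 4034.

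On day 7, 16 of the 36 genes rose with RUS shRNA and 9 fell, against 23.4% of the 24606 genes tested that were called higher and 25.8% called lower. The median of the 36 was 0.06, and that of all genes −0.03. The largest increases were those of *Nfia*, *Atp1b2*, *Nfix*, *Ttyh1* and *Htra1*, and the largest decreases those of *Slc7a10*, *Hopx*, *Tnc* and *S100b*. The changes ran in both directions on each day, so that the list did not move as a block.

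Between the days, 8 genes rose with RUS shRNA on both days (*Glul*, *Hepacam*, *Slc4a4*, *Pla2g7*, *Sox9*, *Clu*, *Cst3* and *Htra1*) and 3 fell on both (*Nfib*, *Hopx* and *Tnc*). *Acsbg1* rose on day 5 and fell on day 7. *Aqp4*, *Gja1*, *Sparcl1*, *Bcan* and *Ntsr2* passed on neither day. Of the 21724 genes tested on both days, 2108 (9.70%) were called higher on both and 2610 lower on both.

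**Figure D2:**
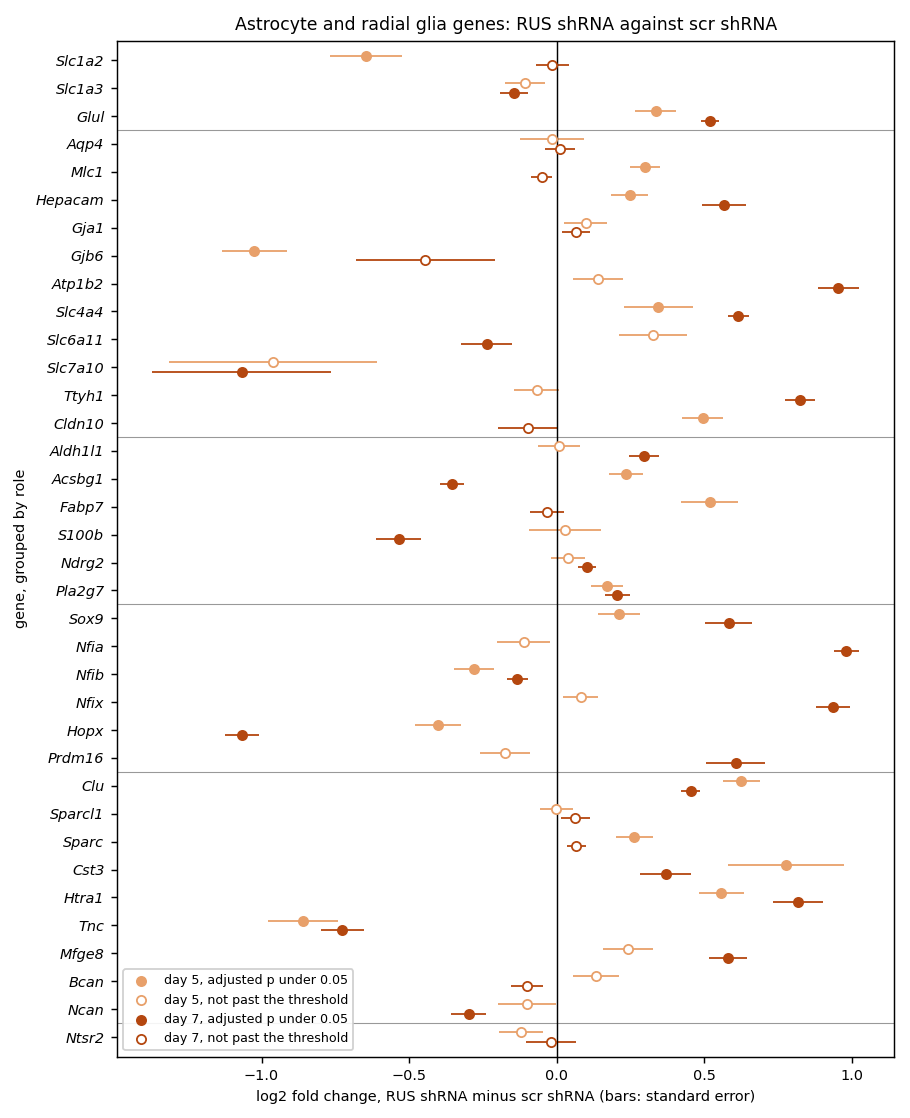
Log2 fold change of RUS shRNA against scr shRNA (horizontal axis, bars for the SE) for the 36 genes by role on day 5 (light) and day 7 (dark), with filled points for adjusted p under 0.05. *Nfia*, *Nfix*, *Ttyh1*, *Atp1b2* and *Prdm16* lie between −0.18 and 0.14 on day 5 and between 0.61 and 0.98 on day 7, and *Hopx* and *Tnc* lie below 0 on both days.

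The number of day 5 calls changed with the scale to which the libraries were brought. With TPM as deposited, the median of all genes on day 5 was −0.205 in place of −0.06, 5 of the 36 genes were called higher and 9 lower, and 22.7% of all calls were higher in place of 45.4% (34.5% with scaling to the 75th percentile). With quantile normalization, 5 of the 36 were called higher and 7 lower, where 3326 of all genes were called higher and 3337 lower. The effects were also computed with 9 alternatives (other scalings, pseudocounts, filters and fits). The calls of *Slc1a2*, *Gjb6*, *Cldn10*, *Fabp7*, *Hopx*, *Clu*, *Htra1* and *Tnc* on day 5 held under each of the 9. Of the other 10 calls, that of *Slc4a4* was lost under 7 of the 9, those of *Pla2g7* and *Sox9* under 6, those of *Hepacam*, *Acsbg1* and *Sparc* under 3, those of *Glul*, *Mlc1* and *Cst3* under 2 and that of *Nfib* under 1. On day 7, 21 of the 25 calls held under every alternative in which the gene was tested, the exceptions being *Slc1a3*, *Slc6a11*, *Ndrg2* and *Cst3*. Some genes not called in the reported fit were called under 1 or 2 of the alternatives, lower on day 5 for *Slc1a3*, *Ntsr2*, *Prdm16* and *Slc7a10*, higher on day 5 for *Slc6a11* and *Mfge8*, lower on day 7 for *Bcan* and *Mlc1* and higher on day 7 for *Gja1* and *Sparc*.

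Other lists were counted in the same comparisons. Of all genes tested, 14.8% were called higher and 17.9% lower on day 5, and 23.4% and 25.8% on day 7. Of 15 genes of cycling cells, 15 fell with RUS shRNA on both days, and their summed scaled TPM was between 1143 and 1184 with scr shRNA and between 612 and 682 with RUS shRNA on day 5, and between 1097 and 1119 against 441 and 493 on day 7. Of 15 microglia genes, 3 rose and 4 fell on day 5 (sums of 297 to 319.8 against 270.4 to 353) and 15 fell on day 7 (670.3 to 721 against 319.8 to 395). Of 10 ependymal genes, 1 rose and 5 fell on day 5 (524 to 614 against 442 to 539) and 10 fell on day 7 (1198 to 1337 against 593 to 726). No gene of these 3 lists had a group mean under 0.1 scaled TPM. Of 13 tested oligodendrocyte lineage genes, 1 rose and 4 fell on day 5 and 1 rose and 10 fell on day 7. The sums of the 14 genes of that list were 379 to 467 with scr shRNA and 434 to 581 with RUS shRNA on day 5. On day 7 they were 509 to 549 against 421 to 460. Of 20 neuronal genes, 4 rose and 4 fell on day 5 and 11 rose and 5 fell on day 7. Genes of vessels (1 rose and 2 fell of 8 tested on day 5, 2 and 1 of 7 on day 7) and of meningeal fibroblasts (1 and 0 of 8, then 3 and 0 of 8) were mostly low, with 4 or 5 of 12 and 2 of 10 under 0.1 scaled TPM. The part of these cells in the changes of the 36 genes was not tested. In bulk libraries, a change in the share of a cell type and a change in RNA per cell cannot be told apart.

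**Figure D3:**
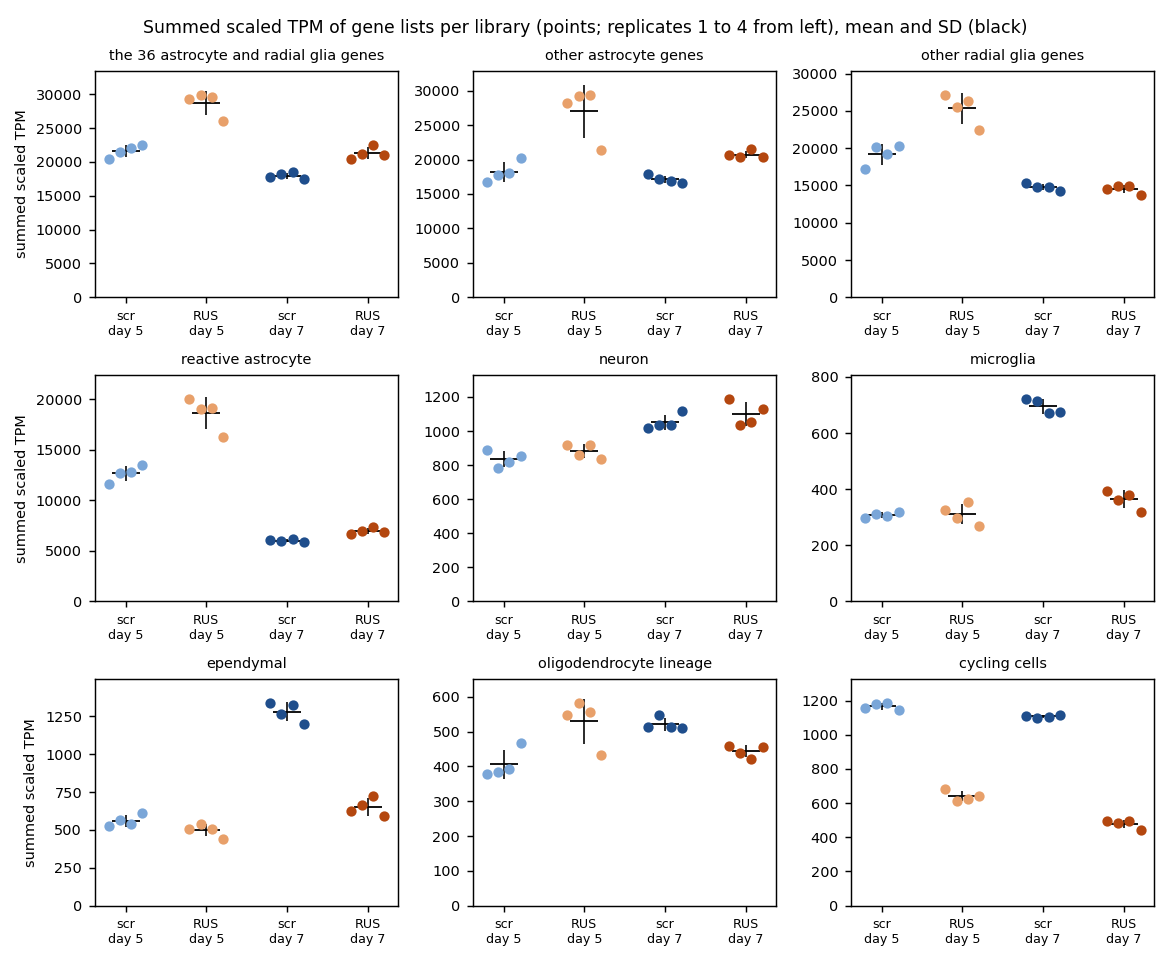
Summed scaled TPM (vertical axes from 0) of 9 gene lists in each library by group, with the mean and SD in black. The sum of the 36 genes is higher with RUS shRNA than with scr shRNA in every library of the same day, and that of cycling genes is lower. The 4 highest genes of a group make up 55.2% to 64.1% of the sum of the 36. The median log2 fold change of the 36 is 0.09 on day 5 and 0.06 on day 7. The microglial and ependymal sums are highest with scr shRNA on day 7.

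The second question was how the genes moved from day 5 to day 7, the first days of differentiation. With scr shRNA, 22 of the 36 genes fell and 7 rose, against 21.6% of the 23789 genes tested that were called lower and 26.9% called higher. With RUS shRNA, 21 fell and 8 rose, against 25.8% called lower and 35.0% higher. The medians of the 36 were −0.38 and −0.36, where those of all genes were 0.07 and 0.13. With TPM as deposited, the medians of all genes were 0.205 and 0.415, and 71.4% and 76.9% of all calls were higher in place of 55.5% and 57.5%. Under that scale 11 of the 36 were called higher and 18 lower with scr shRNA, and 12 higher and 13 lower with RUS shRNA. With quantile normalization, 10 of the 36 were called higher and 18 lower with scr shRNA, and 16 higher and 14 lower with RUS shRNA, where 5693 of all genes were higher and 5717 lower with scr shRNA and 7128 and 6782 with RUS shRNA. Of the 29 calls with each shRNA, 22 with scr shRNA and 20 with RUS shRNA held under every alternative in which the gene was tested. The exceptions were *Slc1a3*, *Gja1*, *Slc7a10*, *Ndrg2* and *Ntsr2* with both shRNAs, *Slc1a2* and *Ttyh1* with scr shRNA, and *Mlc1*, *Slc6a11*, *Sparcl1* and *Bcan* with RUS shRNA.

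The same 18 genes fell with both shRNAs, among them *Gjb6*, *Atp1b2*, *Aldh1l1*, *Mfge8*, *Cldn10*, *Fabp7*, *Ncan*, *Htra1* and *Glul*. *S100b*, *Pla2g7*, *Nfia*, *Nfib*, *Nfix* and *Tnc* rose with both. Of the 23729 genes listed once and tested with both shRNAs, 16.2% were called lower with both shRNAs and 20.8% higher with both. *Ttyh1* was the one gene called in opposite directions, lower with scr shRNA and higher with RUS shRNA. These 2 comparisons share no library but 1 estimate of the spread. Microglial and ependymal genes rose over the same days with scr shRNA (13 of 15 and 10 of 10) and with RUS shRNA (8 of 15, with 1 lower, and 7 of 10, with 2 lower). Of the cycling genes, 5 of 15 fell with scr shRNA and 11 with RUS shRNA. The part of these cells in the day changes was not tested.

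**Figure D4:**
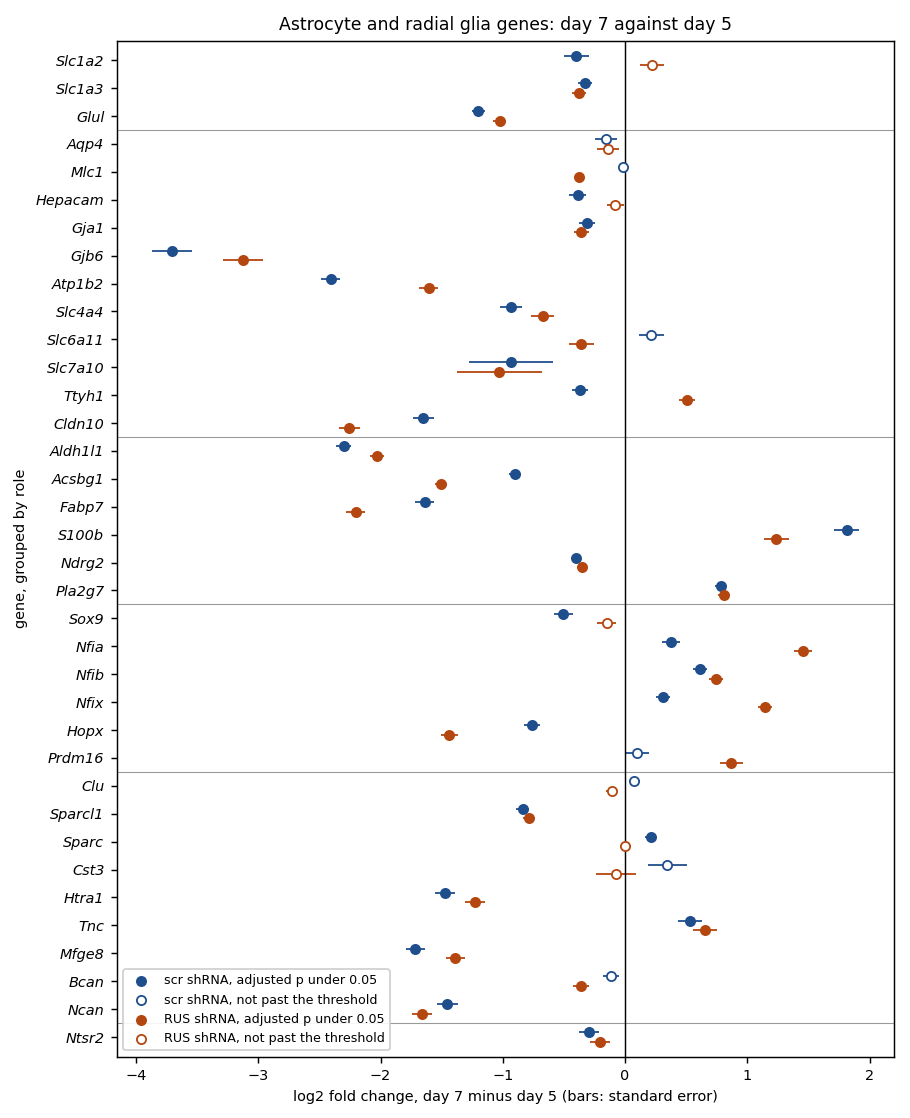
Log2 fold change from day 5 to day 7 (horizontal axis, bars for the SE) for the 36 genes by role with scr shRNA (blue) and RUS shRNA (brown), with filled points for adjusted p under 0.05. *Gjb6* fell by over 3 on the log2 scale with each shRNA, and *S100b* and the 3 nuclear factor I genes lie above 0 with both.

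Whether the knockdown effect differed between the days was tested in 1 fit over all 16 libraries. It was more positive on day 7 for 10 of the 36 genes and more negative for 9, where 15.2% and 14.6% of all genes tested were called in these directions. The largest such differences were those of *Nfia*, *Ttyh1*, *Nfix*, *Atp1b2* and *Prdm16* upwards and of *Hopx*, *Cldn10*, *Acsbg1*, *Slc6a11*, *S100b* and *Fabp7* downwards. With TPM as deposited, 17 of the 36 were called upwards and 6 downwards, the median of all genes was 0.19 in place of 0.04, and 73.5% of all calls were upwards in place of 51.1%. With quantile normalization, 17 of the 36 were called upwards and 6 downwards, where 3560 and 3361 of all genes were called in these directions, against 3626 and 3464 in the reported fit. Of the 19 calls, 14 held under every alternative, the exceptions being *Mlc1*, *Slc6a11*, *Clu*, *Sparc* and *Mfge8*.

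Among the genes of glutamate handling, the transporter *Slc1a2*, which carries most glutamate uptake of the adult forebrain, fell with RUS shRNA on day 5. Its scaled TPM was 93.0, 83.1, 92.9 and 75.2 with scr shRNA and 52.2, 50.2, 48.4 and 70.5 with RUS shRNA, so that the groups did not overlap and RUS shRNA day 5 replicate 4 lay nearest to the controls. The log2 fold change was −0.65 (SE 0.122, adjusted p = 0.0034), and −0.77 without that library. On day 7 the levels were 60.7, 64.5, 65.0 and 70.2 against 65.2, 63.4, 67.9 and 58.7, which overlapped (log2 fold change −0.01, SE 0.0561, adjusted p = 0.857), and the effect differed between the days by 0.62 (SE 0.144, adjusted p = 0.00453). *Slc1a2* fell from day 5 to day 7 with scr shRNA (−0.40, adjusted p = 0.00411) and had 0.22 (adjusted p = 0.0741) with RUS shRNA, a value that passed without RUS shRNA day 5 replicate 4 (adjusted p = 0.000917). With TPM as deposited the first was −0.25 and lost the call (adjusted p = 0.101). The second passed at 0.54 with TPM as deposited, 0.33 with quantile normalization and 0.32 with scaling to the 75th percentile (adjusted p = 0.000881, 0.0172 and 0.0192).

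*Glul*, which encodes glutamine synthetase, rose with RUS shRNA on both days, by 0.33 (SE 0.0682, adjusted p = 0.00509) on day 5 and 0.52 (SE 0.0296, adjusted p = 9.82e-07) on day 7. Its level in the controls went from 776 ± 51.2 scaled TPM on day 5 to 337 ± 11.4 on day 7, and it was 976 ± 59.3 and 478 ± 4.12 with RUS shRNA. The day 7 groups lay far apart, at 332, 328, 336 and 354 against 481, 472, 479 and 481. The call of day 5 was lost with TPM as deposited (adjusted p = 0.108) and with quantile normalization (0.797). *Slc1a3*, the glutamate transporter of radial glia, fell slightly on day 7 (−0.15, SE 0.0475, adjusted p = 0.0289) and had −0.11 (adjusted p = 0.251) on day 5. The day 5 value was −0.27 with TPM as deposited and −0.36 with quantile normalization and passed with both (adjusted p = 0.0306 and 0.0381). The day 7 call was lost under 4 of the 9 alternatives, with a value of −0.021 (adjusted p = 0.777) under quantile normalization. Its adjusted p was between 0.0516 and 0.0652 without scr shRNA replicate 2 or 4 or RUS shRNA replicate 2 or 4.

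Of the genes of water, gap junction, ion and amino acid transport, the gap junction gene *Gjb6* (chr14:57123303-57133611, minus strand, GRCm38, as for all positions below) fell with the knockdown on day 5. Its scaled TPM was 6.54, 7.11, 7.00 and 7.26 with scr shRNA and 3.75, 2.75, 3.30 and 3.78 with RUS shRNA, and no library of one group reached the other. The log2 fold change was −1.02 (SE 0.111, adjusted p = 0.00017), a 2.03-fold lower level. By day 7 its level had dropped to 0.448, 0.340, 0.660 and 0.375 with scr shRNA and 0.250, 0.339, 0.273 and 0.336 with RUS shRNA. Before scaling, 2 RUS shRNA libraries of day 7 had the same TPM as the lowest control, 0.37, and the difference did not pass the threshold (−0.45, SE 0.235, adjusted p = 0.151). The drop between the days was −3.70 (SE 0.162, adjusted p = 5.61e-11) with scr shRNA and −3.12 (SE 0.162, adjusted p = 2.91e-10) with RUS shRNA. At such low day 7 levels the size of this drop depends on the added constant, and with a pseudocount of 1 it was −2.46 and −1.75.

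The other connexin gene of the list, *Gja1*, had 690.4 ± 26.7 scaled TPM with scr shRNA on day 5, where *Gjb6* had 6.98 ± 0.307. It passed on neither day, with knockdown values of 0.10 (SE 0.0729, adjusted p = 0.345) and 0.07 (SE 0.0474, adjusted p = 0.292). It fell from day 5 to day 7, with a log2 change of −0.31 (adjusted p = 0.000683) with scr shRNA and −0.36 (adjusted p = 0.000141) with RUS shRNA, and the second value was 0.25 under quantile normalization. *Aqp4*, the water channel of astrocyte endfeet, passed in none of the 5 comparisons in the reported fits. Its day change with RUS shRNA, −0.14 (adjusted p = 0.203), passed at −0.22 without RUS shRNA day 5 replicate 3 (adjusted p = 0.0373) and at 0.34 under quantile normalization (adjusted p = 0.017). That with scr shRNA, −0.15 (adjusted p = 0.182), passed when fitted on the 8 scr shRNA libraries alone (−0.15, adjusted p = 0.0297). Its level lay between 317 and 352 scaled TPM in the means of the 4 groups.

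*Atp1b2* (chr11:69599736-69605942, minus strand), a beta subunit of the sodium and potassium pump, fell steeply between the days. Its scaled TPM with scr shRNA was 1294, 1203, 1222 and 1155 on day 5 and 232, 232, 239 and 214 on day 7, and with RUS shRNA it was 1154, 1396, 1329 and 1500.5 and then 383, 441, 469 and 471. The groups of day 5 overlapped, and those of day 7 did not. The knockdown effect was 0.14 (SE 0.0835, adjusted p = 0.237) on day 5 and 0.95 (SE 0.0698, adjusted p = 4.2e-06) on day 7, a 1.94-fold higher level, and the difference between the days was 0.80 (SE 0.110, adjusted p = 9.09e-05). The day 5 effect was 0.21 (adjusted p = 0.0453) without RUS shRNA replicate 1 and −0.14 (adjusted p = 0.43) under quantile normalization. The day change was −2.41 (SE 0.0776, adjusted p = 2.47e-12) with scr shRNA and −1.61 (SE 0.0776, adjusted p = 1.41e-10) with RUS shRNA.

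*Ttyh1* (chr7:4119408-4136708, plus strand), a membrane protein of the tweety family found in neural stem cells and astrocytes, had a like course with the knockdown. It was at 552, 443, 478 and 464 with scr shRNA and 441, 486, 477 and 436 with RUS shRNA on day 5, and at 363, 380.4, 363 and 387 and 619.6, 625, 655 and 722 on day 7. The effect was −0.07 (SE 0.0749, adjusted p = 0.52) on day 5 and 0.82 (SE 0.0507, adjusted p = 1.51e-06) on day 7, and it differed between the days by 0.88 (SE 0.0931, adjusted p = 1.1e-05). From day 5 to day 7 *Ttyh1* fell, with a log2 change of −0.37 (adjusted p = 0.000221) with scr shRNA, a call lost under quantile normalization (adjusted p = 0.382), and rose by 0.51 (adjusted p = 5.61e-06) with RUS shRNA.

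*Cldn10* (chr14:118787908-118875489, plus strand), a claudin, rose on day 5, from 20.5, 24.6, 22.4 and 21.1 with scr shRNA to 32.9, 30.5, 30.7 and 30.4 with RUS shRNA, without overlap. The day 5 effect was 0.49 (SE 0.0682, adjusted p = 0.00065). On day 7 the levels were 6.63, 7.66, 6.31 and 7.35 and 6.82, 6.03, 7.35 and 5.67, which overlapped (−0.10, SE 0.0991, adjusted p = 0.445), and the effect differed between the days by −0.61 (SE 0.120, adjusted p = 0.00159). Its fall between the days was −1.65 (SE 0.0851, adjusted p = 3.78e-10) with scr shRNA and −2.26 (SE 0.0851, adjusted p = 1.09e-11) with RUS shRNA.

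*Slc7a10* (chr7:35186385-35201114, plus strand), a transporter of small neutral amino acids, was the lowest gene of the list on day 5. On day 7 it was at 0.559, 0.954, 1.58 and 0.646 with scr shRNA and 0.389, 0.348, 0.273 and 0.455 with RUS shRNA, without overlap. The effect was −1.07 (SE 0.303, adjusted p = 0.0157) on day 7 and −0.49 with a pseudocount of 1. On day 5 its levels of 2.18, 1.66, 1.59 and 1.62 and 1.10, 0.631, 1.69 and 0.399 overlapped (−0.96, SE 0.351, adjusted p = 0.0636, adjusted p = 0.0133 without RUS shRNA replicate 3). The day 5 value passed with TPM as deposited (−1.11, adjusted p = 0.0316) and with scaling to the 75th percentile (−1.03, adjusted p = 0.0471). Its day change was −0.93 (adjusted p = 0.036) with scr shRNA and −1.03 (adjusted p = 0.0176) with RUS shRNA. The first had an adjusted p of 0.0527 to 0.111 without any one library other than day 7 replicate 3, and the second of 0.0521 and 0.0686 without RUS shRNA day 5 replicate 1 or 3.

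The adhesion molecule *Hepacam* and the bicarbonate cotransporter *Slc4a4* rose on both days. *Hepacam* rose by 0.25 (SE 0.0624, adjusted p = 0.0144) on day 5 and 0.57 (SE 0.0738, adjusted p = 0.000163) on day 7. *Slc4a4* rose by 0.34 (SE 0.117, adjusted p = 0.0498) and 0.61 (SE 0.0362, adjusted p = 1.16e-06). The day 5 calls of both were lost under several alternatives, that of *Hepacam* under 3 of the 9 and that of *Slc4a4* under 7. That of *Slc4a4* had an adjusted p of 0.062 to 0.116 without scr shRNA replicate 1, 2, 3 or 4 or RUS shRNA replicate 2 or 3, and a log2 fold change of 0.22 in place of 0.34 without RUS shRNA replicate 4. 

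*Mlc1*, a membrane protein that *Hepacam* binds, rose on day 5 alone, by 0.30 (SE 0.0516, adjusted p = 0.00214), a value that was −0.0036 under quantile normalization, and had −0.05 (adjusted p = 0.274) on day 7. Its levels were 889, 889.6, 916 and 903 with scr shRNA and 1059, 1165, 1111 and 1086 with RUS shRNA on day 5, without overlap, and 918, 889, 902 and 857 and 835, 853, 883 and 837 on day 7, with overlap. *Slc6a11*, a GABA transporter, was at 5.05, 4.93, 5.28 and 3.90 and 5.41, 6.43, 5.64 and 6.53 on day 5 and at 6.22, 5.20, 5.28 and 5.53 and 4.63, 4.56, 5.13 and 4.28 on day 7. Its RUS shRNA libraries were all above the controls on day 5 and all below them on day 7. It had 0.33 (adjusted p = 0.058) on day 5, which passed at 0.47 under quantile normalization (adjusted p = 0.0139) and at 0.33 among genes averaging 1 TPM or more (adjusted p = 0.0427), and fell, with a log2 change of −0.24 (SE 0.0861, adjusted p = 0.0451) on day 7. The latter was lost under 4 of the 9 alternatives and had an adjusted p of 0.0516 to 0.115 without any one library other than RUS shRNA replicate 3. The effects on *Mlc1* and *Slc6a11* differed between the days by −0.36 (adjusted p = 0.00017) and −0.57 (adjusted p = 0.00695), the first of which was 0.037 under quantile normalization and the second −0.41 (adjusted p = 0.0621) with TPM as deposited.

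Of the enzymes and the binding proteins, *Fabp7* (chr10:57784881-57788450, plus strand), the brain lipid-binding protein and a classical marker of radial glia, was second to *Cst3* in level on day 5. It was at 3111, 4099, 3783 and 3474 scaled TPM with scr shRNA and rose to 5381, 4723, 5389 and 5108 with RUS shRNA, and the groups did not overlap. The effect was 0.52 (SE 0.0955, adjusted p = 0.00302). On day 7 both groups had fallen, to 1150.1, 1203, 1100.4 and 1167 and 1185, 1165, 1138 and 989.9, and overlapped (−0.03, SE 0.0580, adjusted p = 0.666). The day change was −1.64 (SE 0.0789, adjusted p = 1.69e-10) with scr shRNA and −2.20 (SE 0.0789, adjusted p = 6.48e-12) with RUS shRNA, and the knockdown effect differed between the days by −0.56 (SE 0.112, adjusted p = 0.00154).

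*Aldh1l1* (chr6:90486427-90600203, plus strand), a folate enzyme in wide use as an astrocyte marker, fell from 283, 306, 316 and 308 on day 5 to 62.4, 61.1, 63.4 and 58.7 on day 7 with scr shRNA. With RUS shRNA it went from 270.0, 323, 324 and 305 to 72.9, 72.5, 81.3 and 72.1. The day change was −2.30 (SE 0.0590, adjusted p = 3.39e-13) and −2.03 (SE 0.0590, adjusted p = 6.89e-13), in this order. The day 5 groups overlapped (0.01, SE 0.0708, adjusted p = 0.944), and on day 7 every RUS shRNA library was above every control (0.29, SE 0.0496, adjusted p = 0.000829).

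*Acsbg1* (chr9:54604877-54661870, minus strand), an acyl-CoA synthetase for long fatty acids, was the one gene called in opposite directions by the knockdown. On day 5 it was at 396, 417, 426 and 424 with scr shRNA and 466, 525, 502 and 463 with RUS shRNA. On day 7 it was at 233, 217, 223 and 218 and 172, 172, 181 and 164. The groups did not overlap on either day, with RUS shRNA above on day 5 and below on day 7. The effects were 0.23 (SE 0.0587, adjusted p = 0.0138) and −0.36 (SE 0.0403, adjusted p = 6.54e-05), with a difference of −0.60 (SE 0.0658, adjusted p = 1.38e-05). The day 5 call was lost under 3 of the 9 alternatives, among them TPM as deposited and quantile normalization (adjusted p = 0.268 and 0.33), where the sign stayed positive, and the calls of day 7 and of the difference were kept under each of the 9 alternatives.

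*S100b*, a calcium-binding protein that appears as astrocytes mature, rose between the days. Its level went from 4.08, 4.90, 5.28 and 4.06 to 17.6, 16.5, 15.2 and 15.7 with scr shRNA and from 4.88, 4.85, 4.95 and 3.93 to 12.7, 10.8, 10.7 and 10.2 with RUS shRNA. The increase was 1.81 (SE 0.102, adjusted p = 9.81e-10) and 1.24 (SE 0.102, adjusted p = 4e-08), the largest of the 36 with scr shRNA. On day 5 the groups overlapped (0.03, SE 0.121, adjusted p = 0.891), and on day 7 each RUS shRNA library was below each control (−0.54, SE 0.0773, adjusted p = 0.000314), so that the knockdown effect differed between the days by −0.57 (SE 0.144, adjusted p = 0.00715). *Pla2g7*, a phospholipase that inactivates platelet-activating factor, rose between the days by 0.79 (adjusted p = 2.55e-09) and 0.81 (adjusted p = 1.2e-09) and with RUS shRNA by 0.17 (adjusted p = 0.04) on day 5 and 0.20 (adjusted p = 0.00288) on day 7. Its day 5 value was −0.04 under quantile normalization, and its adjusted p was 0.0512 to 0.112 without any one control or without RUS shRNA replicate 1 or 3. *Ndrg2*, a cytoplasmic protein abundant in astrocytes, rose on day 7 by 0.10 (adjusted p = 0.0195), with a call lost under 3 of the 9 alternatives and an adjusted p of 0.0548 to 0.067 without scr shRNA replicate 2 or 3 or RUS shRNA replicate 2 or 3.

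The transcription factors separated from one another on day 7, when all 6 passed, 4 higher and 2 lower. Of all genes tested on that day, 23.4% were called higher and 25.8% lower. *Nfia* (chr4:97772734-98118874, plus strand) was at 36.5, 33.9, 32.6 and 30.9 with scr shRNA and 29.1, 30.1, 28.1 and 36.8 with RUS shRNA on day 5, with overlap. On day 7 it was at 41.9, 45.8, 42.6 and 43.0 and 81.8, 86.9, 87.4 and 82.9, without overlap. The effect was −0.11 (SE 0.0907, adjusted p = 0.382) on day 5 (adjusted p = 0.0452 without RUS shRNA replicate 4) and 0.98 (SE 0.0421, adjusted p = 2.41e-07) on day 7, and the difference of 1.08 (SE 0.103, adjusted p = 5.26e-06) held under each of the 9 alternatives. *Nfia* rose from day 5 to day 7 with both shRNAs, by 0.37 (SE 0.0727, adjusted p = 0.000486) with scr shRNA and 1.46 (SE 0.0727, adjusted p = 2.01e-10) with RUS shRNA.

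*Nfix* behaved alike in these values and *Nfib* did not. *Nfix* was at 123, 122, 131 and 113 with scr shRNA and 213, 236, 234 and 242 with RUS shRNA on day 7, an effect of 0.93 (SE 0.0574, adjusted p = 1.5e-06), after 0.08 (SE 0.0590, adjusted p = 0.333) on day 5 and with a difference between the days of 0.84 (SE 0.0812, adjusted p = 5.72e-06). *Nfib* fell, with a log2 change of −0.28 (SE 0.0692, adjusted p = 0.0128) on day 5 and by −0.13 (SE 0.0353, adjusted p = 0.0105) on day 7, from 84.9, 88.8, 90.0 and 92.6 to 78.9, 80.3, 82.5 and 79.6. All 3 rose from day 5 to day 7 with both shRNAs, *Nfix* by 0.31 and 1.15 and *Nfib* by 0.61 and 0.75. *Prdm16*, a regulator of radial glia, was at 14.3, 14.2, 14.1 and 13.1 with scr shRNA and 10.8, 13.2, 11.9 and 13.5 with RUS shRNA on day 5, with overlap, and at 15.8, 17.3, 14.7 and 12.4 and 21.3, 21.9, 22.5 and 24.7 on day 7, without overlap (0.61, SE 0.0985, adjusted p = 0.000675), after −0.18 (adjusted p = 0.139) on day 5, which was −0.33 (adjusted p = 0.0336) with TPM as deposited. *Sox9* rose by 0.21 (SE 0.0710, adjusted p = 0.0476) on day 5 and 0.58 (SE 0.0806, adjusted p = 0.000244) on day 7, and the day 5 value had an adjusted p of 0.0944 to 0.122 without scr shRNA replicate 1, 2 or 3 or RUS shRNA replicate 2 or 3.

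*Hopx* (chr5:77086988-77115121, minus strand), a small homeodomain protein known from outer radial glia and quiescent stem cells, went the other way. It was at 68.2, 77.1, 79.9 and 72.3 with scr shRNA and 58.0, 61.2, 56.0 and 49.8 with RUS shRNA on day 5, and at 45.9, 43.7, 43.7 and 41.6 and 18.8, 21.9, 21.2 and 20.9 on day 7. No RUS shRNA library reached the lowest control of its day. The effect was −0.40 (SE 0.0778, adjusted p = 0.00391) on day 5 and −1.06 (SE 0.0573, adjusted p = 7.18e-07) on day 7, and the difference between the days was −0.67 (SE 0.0956, adjusted p = 0.000124). *Hopx* also fell between the days, with a log2 change of −0.76 with scr shRNA and −1.44 with RUS shRNA. Exons of 11 of the 36 genes overlap another gene in the GENCODE vM21 annotation. They include *Hopx* (*Hopxos*), *Nfia* (*E130114P18Rik*), *Nfix* (*G430095P16Rik* and *Lyl1*), *Tnc* (*8030451A03Rik*) and *Aldh1l1* (*Gm45901* and *Gm15756*). The others are *Ttyh1* (*9430041J12Rik* and *D030047H15Rik*), *Prdm16* (*B230104I21Rik*), *Slc1a2* (*Gm13872*), *Slc7a10* (*Lrp3*), *Glul* (*Mir8114* and *Teddm2*) and *Pla2g7* (*1700071M16Rik*). Whether the counting used the strand is not given in the sources used here, so reads of such pairs cannot be told apart.

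Since *Nfia* and *Nfix* rose together, the bases before the starts of the 36 genes were searched for the nuclear factor I half-site TTGGCA on both strands. RefSeq gives a start for 30 of the 36 (39 starts). In the 250 bases before a start, 4 of the 30 (13.3%) held the half-site, against 14.1% of the 27025 symbols of the table. The 4 are shown with up to 12 bases on each side of the match, read along the gene and with the match in capitals. They lie at chr4:64046938-64046967 (*Tnc*, minus strand), chr8:70121070-70121094 (*Ncan*, minus strand), chr9:37367555-37367584 (*Hepacam*, plus strand) and chr10:76253805-76253834 (*S100b*, plus strand) of GRCm38.p6.
Tnc: cctatataagccTGCCAAagctggctgctc
Ncan: agtgatcTTGGCAaacactcttaca
Hepacam: ttcagagggaagTTGGCAgggttgtgctcg
S100b: ccttggcccccaTTGGCAgcctcagcctgc

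The match of *Tnc* is the reverse complement of the half-site. The matches begin 19 bases before the RefSeq start in *Tnc* and *S100b*, 39 in *Hepacam* and 243 in *Ncan*. By the GENCODE positions, *Tnc* begins further upstream, at 64047015, and so does *Hepacam*, at 37367351. The matches of *Tnc* and *Hepacam* therefore lie before the gene by RefSeq and inside it by GENCODE. On day 7, *Hepacam* rose with RUS shRNA and *S100b*, *Tnc* and *Ncan* fell. Whether nuclear factor I proteins act on these genes was not tested. A match of so few letters is a description and not a binding site.

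Of the secreted and matrix proteins, *Cst3* (chr2:148871722-148875692, minus strand) rose on day 5 from 4030.1, 4506, 5008 and 6134 with scr shRNA to 9435, 9940.4, 9110.4 and 5579.5 with RUS shRNA. The lowest RUS shRNA library was replicate 4, which lay within the range of the controls while the other three were above it. The effect was 0.78 (SE 0.198, adjusted p = 0.0149), and 0.97 (adjusted p = 0.000724) without that library. It was not called under quantile normalization on either day (adjusted p of 0.116 and 0.0907). On day 7 *Cst3* was at 6092, 6413, 6801 and 5490.3 and 7119, 7737, 9056 and 7807, without overlap (0.37, SE 0.0875, adjusted p = 0.00627). *Clu*, the chaperone clusterin, rose on both days, by 0.62 (SE 0.0634, adjusted p = 0.000127) and 0.45 (SE 0.0323, adjusted p = 3.59e-06), from 1492, 1364, 1484 and 1455 to 2277, 2300.3, 2309 and 2042 on day 5 and from 1547, 1490.5, 1498 and 1573 to 2106, 2047, 1998 and 2134 on day 7. It did so without overlap of the groups on either day.

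*Htra1*, a secreted serine protease, rose by 0.56 (SE 0.0749, adjusted p = 0.000556) on day 5 and 0.82 (SE 0.0841, adjusted p = 3.52e-05) on day 7. It was at 116, 144, 138 and 145 against 196, 201, 207 and 193 on day 5 and at 51.3, 46.4, 54.2 and 44.1 against 93.9, 85.1, 88.3 and 74.7 on day 7. Its level fell between the days, with a log2 change of −1.47 with scr shRNA and −1.22 with RUS shRNA, and the RUS shRNA libraries stayed above the controls. *Mfge8*, a bridging protein for the uptake of dying cells, had 0.24 (SE 0.0858, adjusted p = 0.0586) on day 5 and rose by 0.58 (SE 0.0640, adjusted p = 5.53e-05) on day 7. The day 5 value passed without RUS shRNA replicate 1 or 4 (adjusted p = 0.0352 and 0.0247). *Mfge8* fell between the days, with a log2 change of −1.71 with scr shRNA and −1.39 with RUS shRNA.

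*Tnc* (chr4:63959785-64047015, minus strand), the matrix protein tenascin C of the stem cell niche, fell on both days. On day 5 it was at 14.0, 14.7, 14.0 and 14.4 with scr shRNA and 6.19, 7.87, 7.85 and 9.64 with RUS shRNA, and on day 7 at 20.9, 21.3, 21.1 and 19.3 and 11.0, 13.2, 13.4 and 11.8. The groups did not overlap on either day, and RUS shRNA day 5 replicate 4 was again the library nearest to the controls. The effect was −0.86 (SE 0.118, adjusted p = 0.000632) on day 5 (−0.96 without that library) and −0.73 (SE 0.0730, adjusted p = 2.99e-05) on day 7. *Tnc* rose between the days, by 0.53 (adjusted p = 0.00039) with scr shRNA and 0.65 (adjusted p = 3.44e-05) with RUS shRNA.

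Knockdown effects on the remaining matrix genes were smaller. *Sparc*, a collagen-binding matrix protein, rose on day 5 by 0.26 (adjusted p = 0.0106), a call lost under 3 of the 9 alternatives, and had 0.07 (adjusted p = 0.129) on day 7 (adjusted p = 0.0471 without RUS shRNA replicate 1 and 0.0285 under quantile normalization). Its relative *Sparcl1*, which astrocytes secrete to promote synapses, had −0.0021 (adjusted p = 0.984) and 0.06 (adjusted p = 0.334). It fell between the days, with a log2 change of −0.84 with scr shRNA and −0.79 with RUS shRNA, the second of which was −0.18 (adjusted p = 0.0613) under quantile normalization. Of the chondroitin sulphate proteoglycans, *Ncan* fell on day 7, with a log2 change of −0.30 (SE 0.0589, adjusted p = 0.00219) and between the days by −1.45 and −1.66. *Bcan* had 0.13 (adjusted p = 0.222) on day 5 and −0.10 (adjusted p = 0.147) on day 7, and the first passed without RUS shRNA replicate 1 (adjusted p = 0.0498). The neurotensin receptor *Ntsr2* passed on neither day, with −0.12 (adjusted p = 0.247) and −0.02 (adjusted p = 0.87). The day 5 value was −0.28 with TPM as deposited and −0.25 with quantile normalization, and passed with both (adjusted p = 0.019 and 0.0197). It fell between the days, with a log2 change of −0.29 (adjusted p = 0.00682) with scr shRNA and −0.20 (adjusted p = 0.0392) with RUS shRNA, of which the first was −0.14 (adjusted p = 0.189) and the second 0.12 with TPM as deposited. The second was lost under 6 of 10 alternatives and had an adjusted p of 0.0538 to 0.15 without RUS shRNA day 5 replicate 2, 3 or 4 or day 7 replicate 1 or 2.

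**Figure D5:**
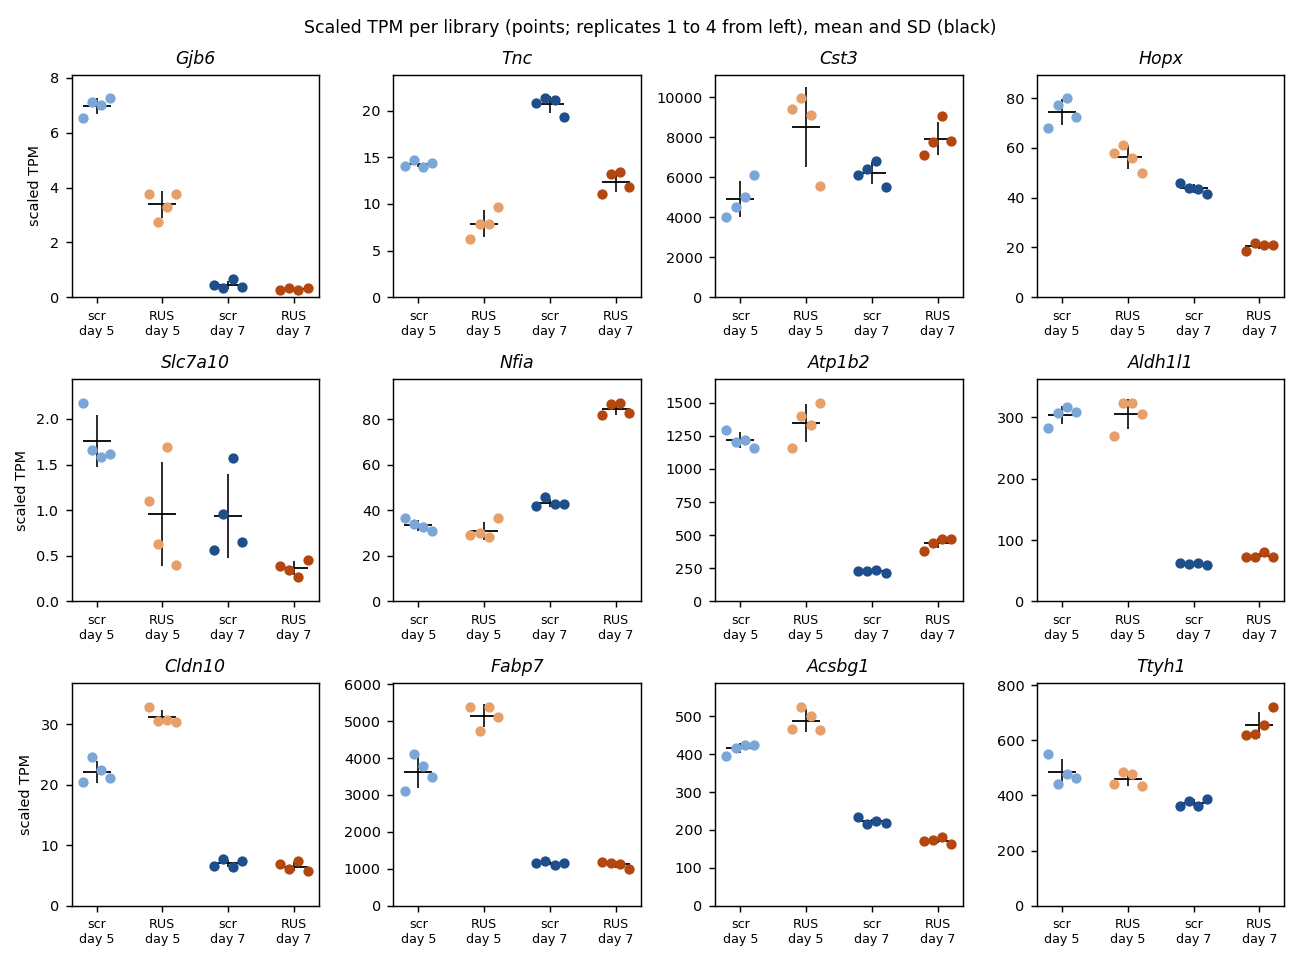
Scaled TPM in each library (vertical axes from 0) of 12 genes by group, with the mean and SD in black. *Nfia* and *Ttyh1* are higher in the 4 RUS shRNA libraries of day 7 than in any other library, *Hopx* and *Tnc* are lower with RUS shRNA than with scr shRNA in every library of a day, and *Gjb6* and *Aldh1l1* drop between the days with both shRNAs.

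Some of the differences between the days had an adjusted p near the threshold. The difference for *Clu* (−0.18, SE 0.0667, adjusted p = 0.0495) lost the call without any one library other than RUS shRNA day 5 replicate 4, with values of −0.15 to −0.20 and an adjusted p up to 0.1. It held under 1 of the 9 alternatives and was 0.22 under quantile normalization. That for *Mfge8* (0.33, SE 0.108, adjusted p = 0.0328) had values of 0.28 to 0.33 and an adjusted p of 0.0502 to 0.0709 without any of 9 libraries (scr shRNA day 5 replicates 3 and 4, scr shRNA day 7 replicates 2, 3 and 4, RUS shRNA day 5 replicates 1 and 4, and RUS shRNA day 7 replicates 3 and 4). That for *Hepacam* (0.31, SE 0.0962, adjusted p = 0.025) had values of 0.26 to 0.28 and an adjusted p of 0.0512 to 0.0548 without RUS shRNA day 5 replicate 1, scr shRNA day 7 replicate 4 or RUS shRNA day 7 replicate 3. For *Sparc* it was −0.21 (SE 0.0632, adjusted p = 0.0208), and 0.14 under quantile normalization. Those for *Prdm16* (0.77, SE 0.131, adjusted p = 0.000514), *Sox9* (0.36, SE 0.109, adjusted p = 0.0217) and *Aldh1l1* (0.27, SE 0.0835, adjusted p = 0.0217) kept the call without any one library. Without RUS shRNA day 5 replicate 4, 11 of the 36 were called upwards and 11 downwards, where 4392 and 3900 of all genes were called in these directions. Without 1 library, the differences of *Htra1*, *Glul*, *Slc4a4* and *Gjb6* upwards and of *Cst3*, *Bcan* and *Ncan* downwards also passed, each for 1 to 3 of the libraries left out.

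Of 36 further astrocyte genes that are not on the list, 16 rose and 8 fell with RUS shRNA on day 5, and 19 rose and 12 fell on day 7 (medians of 0.18 and 0.26). The largest changes were those of *Kcnj10* (−1.56, adjusted p = 1.75e-05) and *Fgfr3* (−1.15, adjusted p = 3.46e-05) on day 5, and of *Lgi4* (1.76, adjusted p = 7.78e-07) and *Gpld1* (−1.41, adjusted p = 4.95e-06) on day 7. Of 30 further radial glia genes, 5 rose and 11 fell on day 5 and 9 rose and 13 fell on day 7 (medians of −0.16 and −0.08), led by *Moxd1* (−1.31, adjusted p = 0.000165) and *Hes1* (−1.31, adjusted p = 0.000223) on day 5 and by *Pdpn* (−1.65, adjusted p = 2.09e-08) and *Veph1* (−1.37, adjusted p = 0.000939) on day 7. Both lists stand against the same shares of all genes, 14.8% called higher and 17.9% lower on day 5 and 23.4% and 25.8% on day 7.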

How the data were processed

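Polyadenylated RNA of 16 NSC samples was sequenced by the authors on a NextSeq 500. Reads were aligned with STAR to mm10 with an Ensembl transcript table, and the deposited values are TPM per gene, estimated by the authors with RSEM. The tables also hold columns of the authors' own DESeq2 comparison, which were not used. How many reads lie behind a value is unknown, so no interval for counting error can be given.

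Each table had 55471 lines. On day 5, 3 lines had no gene name, and 55365 lines were joined between the days. TPM were divided by median-ratio library factors (0.845 to 1.1 over all 16 libraries, from 13614 genes). The fits within a day used factors of that day, and, among the libraries of a day, the relative factors of both scalings differed by at most 0.0165 on the log2 scale. Genes averaging 0.1 TPM or more entered the test, on log2(scaled TPM + 0.1), so that changes of low genes are understated, with limma 3.58.1 in R 4.3.3 (moderated statistics with an intensity trend, two-sided, Benjamini-Hochberg adjustment over all genes tested, threshold 0.05). The knockdown was fitted on the 8 libraries of a day, and the day changes and the difference between the days on all 16. *Gm20754* was compared by an exact permutation test over the libraries.

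All 36 genes are named. Values in every library are given at least for the 3 called genes with the largest change in each knockdown and day comparison, and for genes called in the difference whose knockdown effects had opposite signs. Others were added after their values were seen. The 36 genes and the other lists were chosen with earlier results of these data known. The alternatives were other pseudocounts (0.01 and 1), filters (none and 1 TPM), scalings (none, quantile and 75th percentile), no trend, a replicate block, the 8 libraries of an shRNA alone, and leaving out each library. Positions are from GENCODE vM21 and promoter bases from RefSeq.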

Additional observations from a re-analysis of the deposited data

Results flagged for a closer look

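In 9 of 144 sets of 4 libraries (1 gene in 1 group), 1 library lay far from the other three by Dixon's test, which chance alone gives in about 1 set of 20. Of these, 3 were in RUS shRNA day 5 replicate 4, where *Slc4a4* was highest at 141 scaled TPM, *Clu* lowest at 2042 and *S100b* lowest at 3.93. In scr shRNA day 7 replicate 4, *Slc1a3* was highest at 761 and *Ntsr2* lowest at 70.4. *Slc7a10* was highest in scr shRNA day 5 replicate 1 (2.18), *Sparcl1* in scr shRNA day 5 replicate 3 (693), *Cldn10* in RUS shRNA day 5 replicate 1 (32.9) and *Aldh1l1* in RUS shRNA day 7 replicate 3 (81.3).

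The knockdown effect differed between the days for 19 genes in the limma fit over all 16 libraries, given here as the log2 effect of day 7 minus that of day 5. It was more positive on day 7 for *Nfia* (1.08), *Ttyh1* (0.88), *Nfix* (0.84), *Atp1b2* (0.80), *Prdm16* (0.77), *Slc1a2* (0.62), *Sox9* (0.36), *Mfge8* (0.33), *Hepacam* (0.31) and *Aldh1l1* (0.27). It was more negative for *Hopx* (−0.67), *Cldn10* (−0.61), *Acsbg1* (−0.60), *Slc6a11* (−0.57), *S100b* (−0.57), *Fabp7* (−0.56), *Mlc1* (−0.36), *Sparc* (−0.21) and *Clu* (−0.18).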

How the results depend on the processing

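Of 3415 values recomputed for the 36 genes, 3098 kept their direction and their side of the threshold, 154 lost and 66 gained the call, 78 moved without a call and 19 reversed. With TPM as deposited, the knockdown on day 5 called 5 of the 36 genes higher and 9 lower and 1768 of all genes higher. The day change then called 11 higher and 18 lower with scr shRNA, and 12 higher and 13 lower with RUS shRNA, where 3545 of all genes were lower. The difference between the days called 17 of the 36 upwards, and 5700 of all genes upwards and 2053 downwards. With quantile normalization, 5 were higher and 7 lower on day 5 (3326 and 3337 of all genes), 16 were higher and 14 lower over the days with RUS shRNA (7128 and 6782), and 17 were upwards and 6 downwards in the difference (3560 and 3361).

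Reversals occurred with these 2 scalings. Under quantile normalization, day 5 gave −0.0036 for *Mlc1* and −0.0398 for *Pla2g7*, and the difference gave 0.037 for *Mlc1*, 0.22 for *Clu* and 0.14 for *Sparc*. The day change of *Mlc1* with scr shRNA was 0.14 with TPM as deposited and 0.21 under quantile normalization. The day change with RUS shRNA was 0.24 for *Hepacam*, 0.22 for *Clu*, 0.32 for *Sparc* and 0.12 for *Ntsr2* with TPM as deposited. Under quantile normalization it was 0.24 for *Slc1a3*, 0.34 for *Aqp4*, 0.25 for *Mlc1*, 0.25 for *Hepacam*, 0.25 for *Gja1*, 0.27 for *Ndrg2*, 0.54 for *Clu* and 0.62 for *Sparc*. The cause was not tested.

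With a replicate block, 6 of the 36 genes and 2231 of all genes were higher with RUS shRNA on day 5. Deviations of libraries of the same number had correlations of −0.0991 to 0.0334 over genes averaging 0.1 TPM or more. The labels do not say what the numbers stand for, so whether they mark a shared culture or batch is unknown. Without 1 library at a time, the 36 genes gave 10 to 15 higher and 5 to 6 lower on day 5, 15 to 17 and 7 to 9 on day 7, 7 to 8 and 21 to 22 over the days with scr shRNA, 8 to 9 and 20 to 21 with RUS shRNA, and 8 to 11 in each direction in the difference. Of all genes, 2629 to 3929 were then higher and 3107 to 4593 lower on day 5, 5275 to 5608 and 5810 to 6098 on day 7, 5858 to 6296 and 4725 to 4987 over the days with scr shRNA, 7912 to 8368 and 5829 to 6162 with RUS shRNA, and 3075 to 4392 upwards and 3063 to 3900 downwards in the difference. The unknown depth limits what can be said of *Gm20754*, *Slc7a10* and *Gjb6*.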

Other observations

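Of 15 genes of reactive astrocytes, 9 rose and 2 fell with RUS shRNA on day 5, and 11 rose and 4 fell on day 7, with medians of 0.55 and 0.58. Of all genes tested, 14.8% were called higher and 17.9% lower on day 5, and 23.4% and 25.8% on day 7. *Steap4*, a metalloreductase, rose by 0.98 (adjusted p = 7.71e-05) and 2.59 (adjusted p = 4.6e-08), and *Aspg* rose by 1.78 (adjusted p = 5.76e-05) on day 5. The copper-binding protein *Cp* rose by 1.33 (adjusted p = 1.16e-06) on day 7. *Lcn2*, which encodes a secreted lipocalin, had −0.83 (adjusted p = 0.00238) on day 5 and −1.30 (adjusted p = 1.46e-05) on day 7. From day 5 to day 7, 11 of the 15 fell and 1 rose with each shRNA (limma, adjusted over all genes tested), where 21.6% of all genes were called lower and 26.9% higher with scr shRNA, and 25.8% and 35.0% with RUS shRNA.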
